A study of Mus musculus with 4 samples.

Results

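The genes described here are 10 mouse genes that the transcription factor ATF4 is known to switch on when cells run short of amino acids or carry unfolded protein: Slc7a11, Asns, Psat1, Phgdh, Chac1, Ddit3, Atf3, Trib3, Ddit4 and Sesn2. They were taken by symbol, with all 13 of their probes, from the 24561 genes named on an Agilent 1-colour mouse expression array. The arrays measured L1210 cells, a mouse lymphocytic leukemia line from the DBA subline 212. The cells had been infected with lentivirus carrying a variant of Fbxw11, and GFP+ cells were sorted by flow cytometry into stable populations. What the virus of the control line carried is not given in the sources used here. These were L1210-control and, for the variants, the lines L1210-Fbxw11a, L1210-Fbxw11c and lastly L1210-Fbxw11d. Fbxw11 is an F-box and WD40 repeat protein that chooses substrates for the SCF ubiquitin ligase. Variant a is the full-length form, variant c lacks an early exon in frame, and variant d lacks that exon and the next. Each line was measured on 1 array, so no value has a replicate and no difference between lines has a test. Because RNA was taken from bulk cells, fewer cells expressing a gene and less RNA per cell cannot be told apart.

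When amino acids are scarce or the endoplasmic reticulum is overloaded, kinases such as Eif2ak4 and Eif2ak3 phosphorylate the initiation factor eIF2, most translation slows, and the ATF4 message is translated more. ATF4 then pairs with C/EBP proteins on a short DNA element, the C/EBP-ATF response element (CARE), near genes for amino acid import, amino acid synthesis and stress signalling. Beta-TrCP proteins, the family to which Fbxw11 belongs, are known to bind phosphorylated ATF4 and direct its degradation, which is why these genes are of interest in lines given Fbxw11.

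The element is shown first because ATF4 is known to act on several of these genes through it. RefSeq promoter windows (GRCm38.p6, 250 bases before to 50 bases after each start site) matched all 10 genes, with 11 windows. The letters TGATGNAA, or TTNCATCA on the other strand, were found in 5 of the 10 genes and in 3.97% of all 32851 windows. Each window of 30 bases below reads in the direction of its gene, with the matched letters in capitals.
Slc7a11: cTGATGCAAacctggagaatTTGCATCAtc
Asns: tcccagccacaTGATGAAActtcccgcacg
Chac1: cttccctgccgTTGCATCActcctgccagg
Atf3: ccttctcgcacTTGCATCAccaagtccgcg
Trib3: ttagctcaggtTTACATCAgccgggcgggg
Slc7a11 was the member with a pair of matches facing each other, 66 and 47 bases before its start site, at chr3:50443651-50443680 on the minus strand. The Asns match began 23 bases before the start site (chr6:7693214-7693243, minus strand), that of Chac1 193 bases before it (chr2:119351038-119351067, plus strand) and that of Atf3 110 bases before it (chr1:191183425-191183454, minus strand). In Trib3 the match began at base 15 after the start (chr2:152344028-152344057, minus strand). No match was found in these windows for Ddit3, Ddit4, Sesn2, Psat1 or Phgdh.

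Slc7a11 was the only one of the 10 genes whose signal differed by 2-fold or more from L1210-control, and it was lower in all 3 Fbxw11 lines. Slc7a11 encodes the cystine-glutamate exchanger xCT, which brings in cystine for glutathione synthesis. Its signal was 167.5 ± 17.2 in L1210-control, as against 46.8 ± 5.58 with Fbxw11a, 26.2 ± 4.19 with Fbxw11c and 35.8 ± 4.14 with Fbxw11d. Signals here are background-subtracted brightness scaled to the L1210-control array, and the error is that of the single spot as the scanner software estimated it. It covers the spot only, not the spread between cultures. The control line stood above the other 3, and the spot errors of the 4 lines did not overlap. By the spot SD explained below, the lines a, c and d were not clearly apart from each other. Their log2 ratios were 0.83 (spot SD 0.56) for a over c, 0.38 (0.43) for a over d and -0.45 (0.61) for c over d.

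Relative to L1210-control, Slc7a11 was 3.58-fold lower with Fbxw11a, 6.39-fold lower with Fbxw11c and 4.67-fold lower with Fbxw11d. These are log2 ratios of -1.84, -2.68 and -2.23. As a measure of spot noise, a spot SD was taken from probes of like brightness that are printed 10 times on the array. It was 0.28, 0.51 and 0.36 on the log2 scale for these 3 ratios, so that each ratio was more than 5 times its spot SD. The spot SD is a spread within arrays and leaves out labelling, hybridisation and culture. A multiple of it is therefore no test of a difference between lines. Of all genes compared, 2.02%, 2.27% and 4.7% were 2-fold or more lower in the lines a, c and d, in that order. Among genes well above background on the arrays compared, 49 of 16514 had a ratio as low as that of Slc7a11 or lower with Fbxw11a, 14 of 16421 with Fbxw11c and 57 of 16538 with Fbxw11d. Slc7a11 was among 76 of 16249 genes (0.468%) at 2-fold or more lower in all 3 lines.

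**Figure D1:**
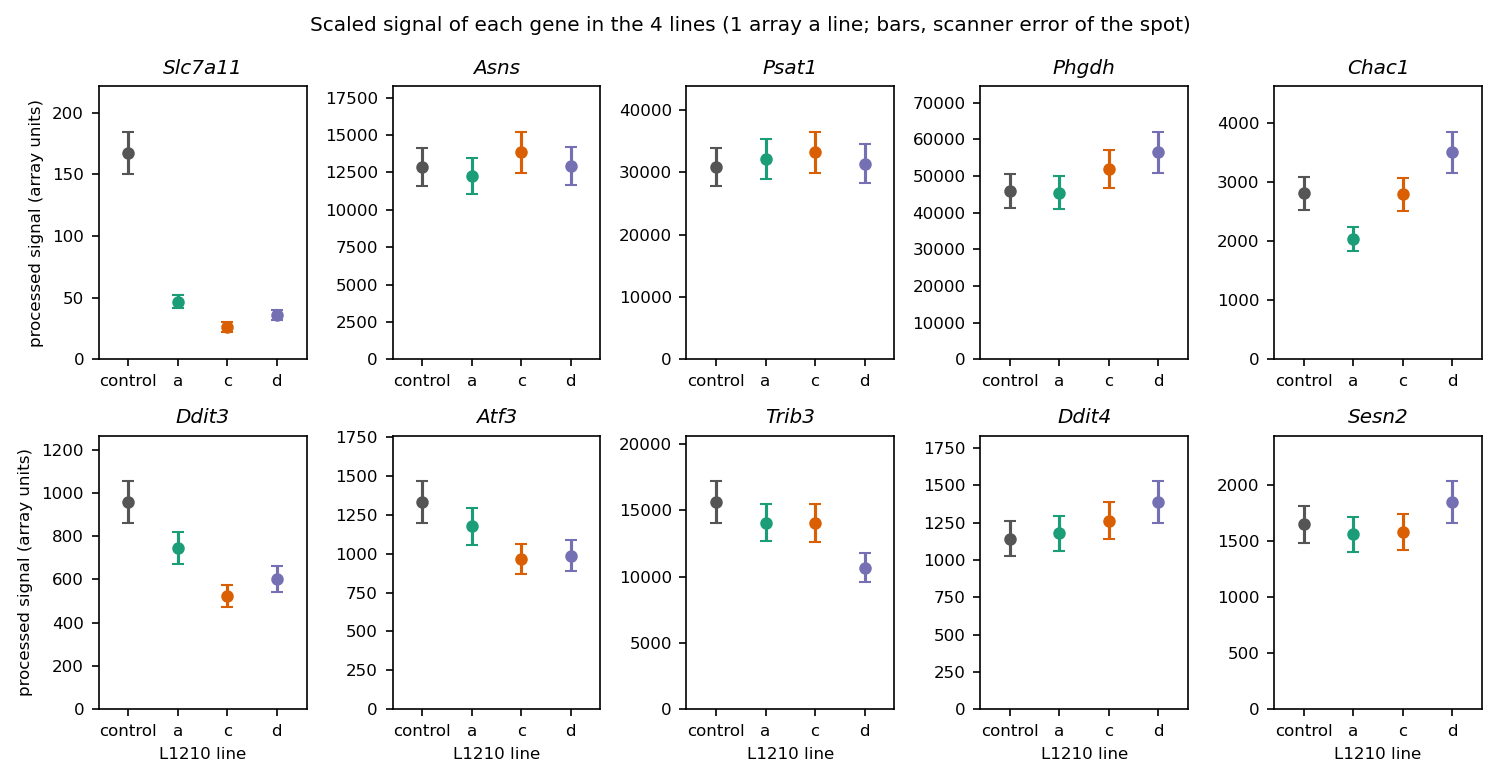
Scaled processed signal (linear axis from 0, array units) of each of the 10 genes in L1210-control and in the lines with Fbxw11a, c and d. Points are the brightest probe of the gene on 1 array a line and bars are the scanner's error of the spot. Slc7a11 goes from 167.5 in the control line to 26.2 to 46.8 in the others, while Asns and Psat1 are nearly level across the 4 lines.

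Slc7a11 was read by 1 probe at chr3:50169700-50169759 (mm9, minus strand), which begins at base 8325 of the transcript, in its long 3′ untranslated region. Its spot was well above background on all 4 arrays. The dimmest signals still well above background were 18.1, 14.4, 14.9 and 10.4 on the control, a, c and d arrays, so the values in the Fbxw11 lines lay within a few-fold of that limit. With another background correction, normexp with an offset of 50, the log2 ratios of Slc7a11 were -1.08, -1.52 and -1.56, still past 2-fold in each line. L1210-control, L1210-Fbxw11a and L1210-Fbxw11c were on 1 slide and L1210-Fbxw11d was alone on the other, so that effects of the slide and of variant d cannot be told apart. The ratios of Slc7a11 in the lines a and c are within 1 slide.

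Values of the partner of xCT and of genes of cysteine and glutathione synthesis are given beside it. Slc3a2, the heavy chain that carries xCT to the membrane, had log2 ratios of -0.14, -0.18 and 0.12 in the lines a, c and d. Gclc and Gclm, the subunits of the enzyme that starts glutathione synthesis, had ratios of -0.08, 0.10 and 0.19 for Gclc and -0.02, 0.29 and 0.52 for Gclm. Cth, which makes cysteine from cystathionine inside the cell, had log2 ratios of 0.02, -0.65 and -0.45.

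Chac1, which encodes an enzyme that breaks down glutathione, was the gene with a line below and a line above the control by more than 2 spot SDs each. Its signal was 2804 ± 280.4 in L1210-control, as against 2034 ± 203 with Fbxw11a, 2786 ± 279 with Fbxw11c and 3500.1 ± 350.01 with Fbxw11d. The log2 ratio was -0.46 (spot SD 0.09) in the line a, -0.01 (spot SD 0.08) in the line c and 0.32 (spot SD 0.11) in the line d. L1210-Fbxw11d was 1.72-fold above L1210-Fbxw11a, a log2 difference of 0.78 with a spot SD of 0.12, but the 2 arrays were on different slides.

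Asns and Psat1, which serve the synthesis of asparagine and serine, had nearly level signals. Asns, asparagine synthetase, had signals of 12851 ± 1285 in L1210-control, as against 12248 ± 1225 with Fbxw11a, 13848 ± 1385 with Fbxw11c and 12938 ± 1294 with Fbxw11d. Psat1, an aminotransferase of serine synthesis, had signals of 30887 ± 3089, 32067 ± 3207, 33218 ± 3322 and 31379 ± 3138 in the same order. For both genes the log2 ratios lay between -0.07 and 0.11, each within 1.31 spot SDs of the control. At such signals the scanner's error was a near constant share of the signal, so overlap of these errors adds little. The second probe of Psat1 read 1270.4, 1225, 1318 and 1246, again level across the lines.

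Phgdh, the dehydrogenase that opens serine synthesis, was read by 3 probes. Its brightest probe gave 45884 ± 4588 in L1210-control, as against 45497 ± 4549.7 with Fbxw11a, 52024 ± 5202 with Fbxw11c and 56493 ± 5649 with Fbxw11d. The 3 probes agreed on the order of the lines a, c and d. Their log2 ratios were -0.01, -0.10 and -0.05 in the line a, 0.18, 0.08 and 0.11 in the line c, and 0.30, 0.13 and 0.14 in the line d. The 2 dimmer probes thus put the signal of L1210-Fbxw11d less far above the control than the brightest probe did.

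Among the stress transcription factors and signalling proteins, Ddit3, Atf3 and Trib3 were lower than L1210-control in all 3 lines, each by less than 2-fold. Ddit3 encodes CHOP, a transcription factor known for driving cell death in prolonged stress. Its signal was 957 ± 95.8 in L1210-control, as against 745 ± 74.5 with Fbxw11a, 524 ± 52.5 with Fbxw11c and 601 ± 60.2 with Fbxw11d. The control line was the highest and the lines c and d the lowest, with log2 ratios of -0.36 (spot SD 0.10), -0.87 (spot SD 0.09) and -0.67 (spot SD 0.12) in the lines a, c and d. Ddit3 was 1.83-fold lower with Fbxw11c and 1.59-fold lower with Fbxw11d. At 1.5-fold, 4.81%, 5.43% and 9.81% of all genes were lower in the lines a, c and d. Of the 10 genes, Slc7a11 was among them in the line a, and Ddit3 and Slc7a11 in the lines c and d, though with median centring Ddit3 was at -0.45 in the line d, short of 1.5-fold.

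Atf3, a stress factor of the ATF and CREB family, had signals of 1332 ± 133 in L1210-control, as against 1176 ± 118 with Fbxw11a, 968 ± 96.8 with Fbxw11c and 987 ± 98.7 with Fbxw11d. The log2 ratios were -0.18, -0.46 and -0.43, with spot SDs of 0.09, 0.09 and 0.12. The order of the lines for Atf3 was that of Ddit3, with the lines c and d lower than the line a. Trib3, a pseudokinase that binds CHOP and AKT, had signals of 15619.5 ± 1562 in L1210-control, as against 14056 ± 1406 with Fbxw11a, 14049 ± 1405 with Fbxw11c and 10676 ± 1068 with Fbxw11d. Its lines a and c overlapped the control within the spot errors, at log2 ratios of -0.15 in each, and the line d lay below the other 3 at -0.55 (spot SD 0.11).

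Ddit4 and Sesn2, which restrain the growth kinase mTORC1 and are also known p53 targets, differed from L1210-control by less than 1.5-fold in each line. Ddit4 had signals of 1144 ± 114 in L1210-control, as against 1178 ± 118 with Fbxw11a, 1264 ± 126 with Fbxw11c and 1388 ± 139 with Fbxw11d, and log2 ratios of 0.04, 0.14 and 0.28. Sesn2 had signals of 1647 ± 165 in L1210-control, as against 1561 ± 156 with Fbxw11a, 1581 ± 158 with Fbxw11c and 1846 ± 185 with Fbxw11d. The highest values of both genes were in L1210-Fbxw11d, 2.39 spot SDs above the control for Ddit4 and 1.42 for Sesn2. With median centring the log2 ratio in this line went from 0.28 to 0.50 for Ddit4 and from 0.165 to 0.39 for Sesn2.

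**Figure D2:**
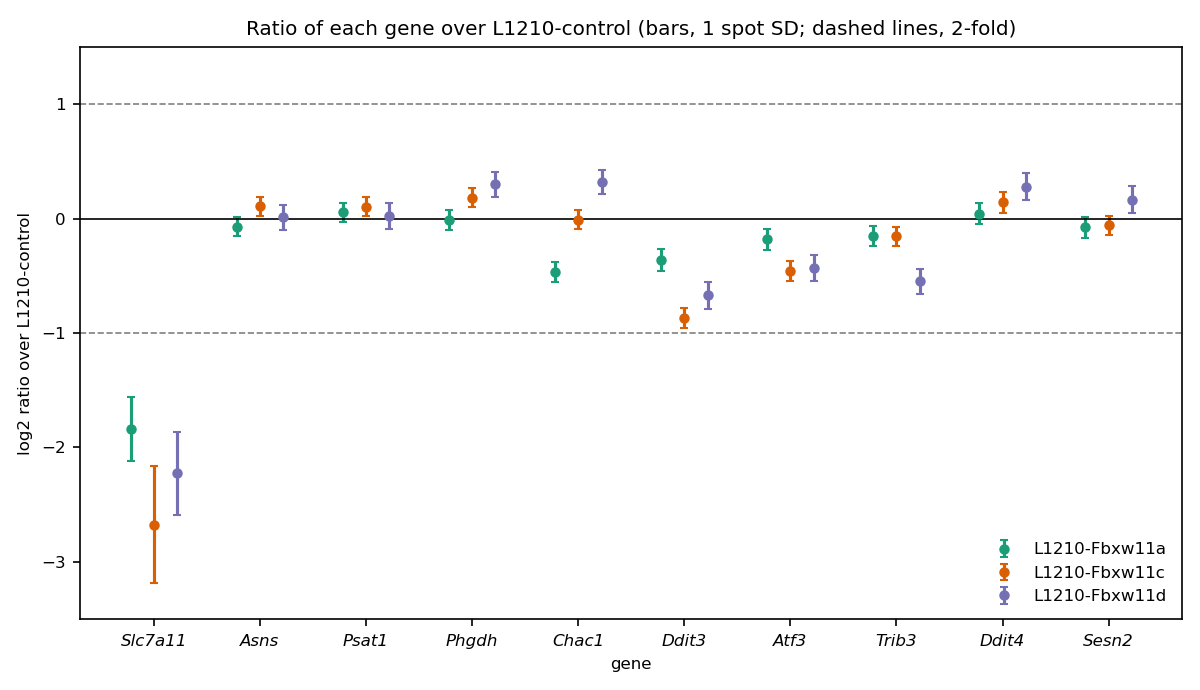
Log2 ratio of each gene over L1210-control in the 3 Fbxw11 lines, 1 array a line. Points are the brightest probe, bars are 1 spot SD taken from probes printed 10 times, and dashed lines mark 2-fold; Slc7a11, at -1.84, -2.68 and -2.23, is the gene below the lower dashed line.

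Counted by the sign of the ratio alone, 4 were lower than the control in all 3 lines (Ddit3, Trib3, Atf3 and Slc7a11), 2 were higher in all 3 (Ddit4 and Psat1, though Psat1 was at -0.02 in the line d under quantile normalization) and 4 were mixed (Asns, Chac1, Sesn2 and Phgdh). The 3 comparisons share the control array, and over all 16249 genes well above background on every array 20.9% were lower and 27.4% higher in all 3 lines. The median log2 ratio of the 10 genes was -0.12 with Fbxw11a, -0.03 with Fbxw11c and 0.02 with Fbxw11d, where that of all genes was 0.00, 0.02 and 0.04. In each line 1 of the 10, Slc7a11, was past 2-fold, beside 4.45%, 3.88% and 5.75% of all genes in either direction in the lines a, c and d.

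Between the Fbxw11 lines, none of the 10 genes differed by 2-fold on the reported values, beside 4.22% of all genes for a against c, 6.01% for a against d and 4.23% for c against d. With median centring, Chac1 was at -0.472 over the control in L1210-Fbxw11a and at 0.544 in L1210-Fbxw11d, more than 2-fold apart. At 1.5-fold, which 10.8% of all genes passed for a against c and 15.9% for a against d, Chac1 was lower in L1210-Fbxw11a than in L1210-Fbxw11d, as given above, and Slc7a11 was higher in L1210-Fbxw11a than in L1210-Fbxw11c, with a log2 ratio of 0.83, but the spot SD of this ratio was 0.56 at these dim signals. Ddit3 was also higher in L1210-Fbxw11a than in L1210-Fbxw11c, by 1.42-fold, a log2 ratio of 0.51 with a spot SD of 0.10.

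Genes with and without the CARE match were mixed in their ratios. Of the 5 genes holding it, Slc7a11 was lower in all 3 lines by 2-fold or more, Atf3 and Trib3 were lower by less than 2-fold, Chac1 lay on both sides of the control and Asns was level, while Ddit3, without a match in its window, was the second lowest of the 10 with Fbxw11c and with Fbxw11d. Over all genes with a window and a signal well above background on every array, the 341 genes with a match had median log2 ratios of 0.03, 0.01 and 0.02 in the lines a, c and d, and all 11364 genes 0.01, 0.02 and 0.05. Of the genes with a match, 1.47%, 2.05% and 3.52% were 2-fold or more lower in the lines a, c and d, beside 1.01%, 1% and 2.78% of all genes with a window. The shares 2-fold or more higher were 2.64%, 1.76% and 1.47%, beside 1.36%, 0.862% and 0.871%. In all 3 lines, 4 of the genes with a match (1.17%) and 51 of all genes with a window (0.449%) were 2-fold or more lower. The 4 were Slc7a11, the keratinocyte envelope gene Lor, and Bcl2l15 and Bcl2a1d of the Bcl2 family. These were named after their values were seen.

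A wider list of 61 genes of the same response, beyond the 10, held no gene at 2-fold or more in any line. The shares of all genes were 4.45%, 3.88% and 5.75% in the lines a, c and d, at which a list of this length would hold few. These shares also take in dim genes, which have larger spot SDs, and were not matched for brightness. Of the 61 genes, 55 were well above background on every array, and their median log2 ratios were -0.11, -0.03 and 0.01 in the lines a, c and d. Atf4 itself had signals of 118097 in L1210-control, as against 125766 with Fbxw11a, 142158 with Fbxw11c and 128323 with Fbxw11d, with log2 ratios of 0.09, 0.27 and 0.12. ATF4 is controlled largely at translation and by degradation, which an array of RNA does not read. The kinase gene Eif2ak4, which senses uncharged tRNA, had ratios of 0.10, 0.10 and -0.33.

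Ppp1r15a encodes GADD34, which restores translation by bringing a phosphatase to eIF2, and it was lower than the control in every line. Its signal was 8371 in L1210-control, as against 6353 with Fbxw11a, 5814 with Fbxw11c and 5496 with Fbxw11d. The log2 ratios were -0.40, -0.53 and -0.61, the last of them past 1.5-fold, though not with median centring (-0.38). By sign alone, 14 of the 55 genes were lower in all 3 lines, among them the C/EBP partner genes Cebpb and Cebpg, Nfe2l2, Herpud1, Sqstm1 and Bbc3, and 9 were higher in all 3, among them Atf4, Eif2ak3, Eif2s1, Got1 and Tars. Over all genes the shares were 20.9% lower and 27.4% higher.

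By role, the 14 regulators had median log2 ratios of -0.06, 0.06 and -0.01 in the lines a, c and d, and the 11 genes of amino acid and one-carbon synthesis -0.18, -0.16 and 0.01. The 8 amino acid transporters well above background had medians of -0.12, -0.13 and -0.01, and the 12 tRNA synthetases, which charge tRNAs with amino acids, -0.08, 0.03 and 0.09. The 10 genes of growth control, secreted factors, autophagy and cell death well above background had medians of -0.12, -0.18 and -0.07. At 1.5-fold, Cth was lower in L1210-Fbxw11c (log2 ratio -0.65), and Ppp1r15a, Cbs (-0.63) and Sqstm1 (-0.71) were lower in L1210-Fbxw11d, beside 5.43% of all genes lower in the line c and 9.81% in the line d. With median centring all 4 fell short of 1.5-fold, Cth at -0.58, Ppp1r15a at -0.38, Cbs at -0.41 and Sqstm1 at -0.49. Cth and Cbs are the enzymes that turn homocysteine into cysteine. The hormone genes Fgf21 and Gdf15, known as secreted markers of this response, were not well above background on all arrays and were left out of the medians.

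**Figure D3:**
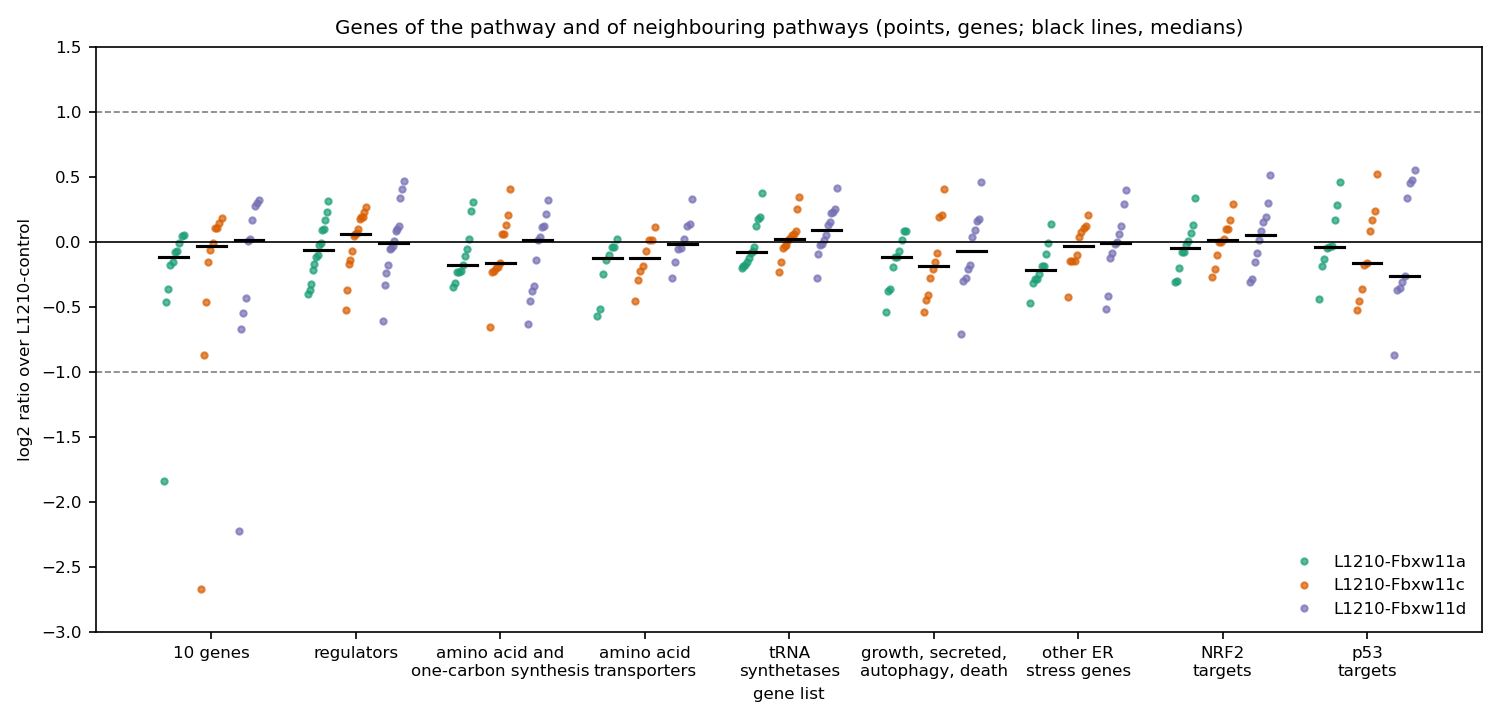
Log2 ratio over L1210-control (vertical axis) of the genes well above background on all 4 arrays, by list and Fbxw11 line. Points are genes, black lines are medians and dashed lines mark 2-fold; the 3 points beyond a dashed line are Slc7a11 in the lines a, c and d.

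Lists of neighbouring pathways held no gene at 2-fold either, which at the shares of all genes given above says little for lists of 10. The 10 chaperone and folding genes of endoplasmic reticulum stress outside the ATF4 arm had medians of -0.22, -0.03 and -0.01, and the 10 targets of NRF2, the oxidative stress factor that also acts on Slc7a11, -0.05, 0.01 and 0.05. Nfe2l2, the gene for NRF2, had ratios of -0.17, -0.14 and -0.18. Of the 10 p53 targets, 9 were compared, with medians of -0.04, -0.16 and -0.27. The letters TGACNNNGC, or GCNNNGTCA on the other strand, which are the core of the antioxidant response element bound by NRF2, were found in 12.4% of all promoter windows and in the windows of Asns, Sesn2 and Phgdh among the 10 genes. They did not overlap a CARE match there.

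The genes whose levels over the 4 lines were most like those of Slc7a11 were Serping1, Bmper, Cdhr3, Fam213a and 1700125H20Rik, by the smallest Euclidean distance between log2 values centred on each gene's own mean, over 4 arrays and 16239 genes compared. The distances ran from 0.44 for Serping1 to 0.55 for 1700125H20Rik. Serping1, the inhibitor of complement C1, had signals of 153 in L1210-control, as against 53.9 with Fbxw11a, 33.1 with Fbxw11c and 49.7 with Fbxw11d. Fam213a, which encodes a redox-active protein, went from 7875 in L1210-control to 2313, 1948 and 2349.5 in the same order.

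**Figure D4:**
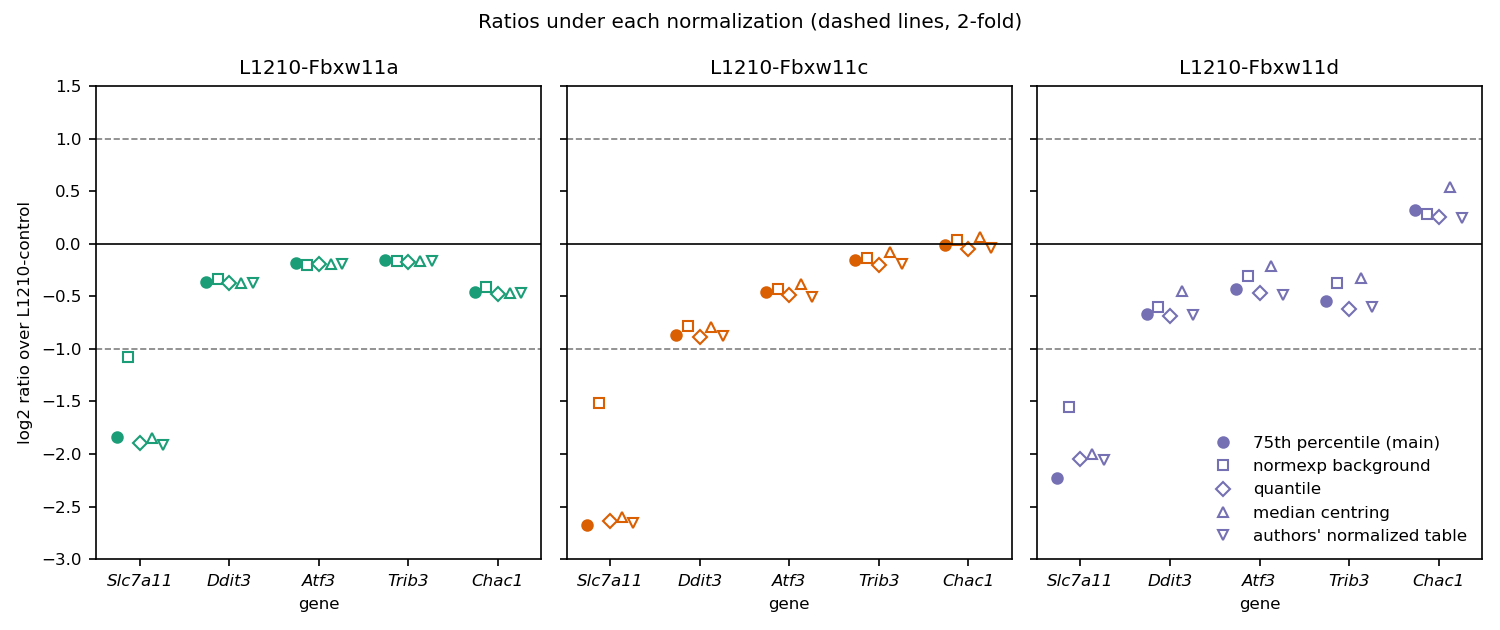
Log2 ratio over L1210-control of Slc7a11, Ddit3, Atf3, Trib3 and Chac1 in each Fbxw11 line under 5 ways of correcting and scaling the arrays (filled circles, the values reported here), with dashed lines at 2-fold. Slc7a11 stays below the lower dashed line in every case, from -1.08 to -2.68, and none of the other 4 reaches either line.

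The arrays had 62.5% to 68.7% of gene probes well above background and no saturated gene spot. Before scaling, the L1210-Fbxw11d array was the brightest, with a 75th percentile signal of 954.2. It was 620.2 for L1210-control, 627.3 for L1210-Fbxw11a and 672.5 for L1210-Fbxw11c. Fbxw11 was read by a pair of probes that begin at bases 3692 and 3803 of the transcript, near its 3′ end and past the coding part that a virus would carry. Their fold over L1210-control lay between 1.02 and 1.24, and they do not check the transferred variants. The study itself reports a check of high variant expression in these lines by real-time RT-PCR and western blot. Of the cell type markers, Ptprc (29.8 to 42.9) and the B cell gene Pax5 were near the limit of detection, and Cd79b, Ebf1, Igll1, Cd3g, Lyz2 and Fcgr1 were not well above background on any array. Blnk, Cd3e, Cd4, Cd68, Itgam and Csf1r were well above it on all 4, so the markers did not mark a single lineage. The 7 macrophage markers on the array, 5 of them well above background on every array, summed to 14543 in L1210-control and to 11081 to 12291 in the Fbxw11 lines, while Emr1 of that list had log2 ratios of 0.91, -0.44 and 0.91 and Csf1r -0.01, -0.10 and -1.12. The 8 B lineage markers, 5 of them well above background on every array, summed to 18469.5 in L1210-control and to 21174 to 23350 in the Fbxw11 lines, mostly through Blnk. The 7 fibroblast markers, 4 of them well above background on every array, summed to 1234 in L1210-control and to 2768 to 4112 in the others, mostly through Col1a2, a collagen gene (log2 ratios 1.45, 2.10 and 2.05), while Pdgfra of the same list had ratios of -0.02, -0.55 and -0.70 and Dcn -0.29, -0.53 and 0.33. Their part in the differences of Slc7a11 was not tested.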

How the data were processed

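Total RNA of the 4 lines was labelled with Cy3 and hybridised, 1 array a line. The deposited scanner files hold the intensity of each spot, background-subtracted by the authors with Agilent Feature Extraction (version 9.1 per the labels). The authors also deposited a table of log2 normalized values, used as an alternative. The build of the probe positions is mm9, per the file headers.

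The log2 of each processed intensity was taken, and the 75th percentile of each array's 59305 gene spots was subtracted. Outlier spots were dropped before the remaining spots of each probe were averaged. A gene was represented by its brightest probe and called at 2-fold, the threshold of the study's methods. Where 1 side was not well above background, the fold is a bound. The spot SD is the median SD of the 50 nearest in signal among 399 probes printed 10 times, combined over both arrays. With 1 array a line no p-value was computed, and the number of arrays limits the precision. Python 3.11.15, pandas 2.3.3, R 4.3.3 and limma 3.58.1 were used.

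All 10 genes and every probe of them were named, with wider-list genes at 2-fold or more and Atf4, Eif2ak4, Ppp1r15a and Fbxw11 in any case. Other genes of the wider list are given as examples, chosen after their values were seen. The alternatives were another background correction, quantile or median scaling, the authors' table, other filters on dim or outlier spots, the mean of a gene's probes and other fold thresholds. The 10 genes, the lists and the motif letters were chosen with earlier results of these data known.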

Additional observations from a re-analysis of the deposited data

Results flagged for a closer look

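The log2 ratio of Chac1 over L1210-control was negative in L1210-Fbxw11a and positive in L1210-Fbxw11d, each by more than 2 spot SDs, and the difference between these lines was 0.78. With median centring the ratios were -0.472 and 0.544, more than 2-fold apart. Chac1 drew attention because these lines lay on opposite sides of the control. With 1 array a line and the arrays on different slides, the difference was not tested.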

How the results depend on the processing

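Slc7a11 stayed 2-fold or more lower in all 3 lines under normexp background correction, quantile normalization, median centring and the authors' normalized values. Both filters on dim probes, flagged spots kept and the mean of a gene's probes left its ratios exactly as reported. These settings do not test it, because Slc7a11 has 1 probe of 1 spot, well above background on all 4 arrays. On the reported values Slc7a11 also passed 3-fold in each line, but under normexp, at -1.08, -1.52 and -1.56, it passed 3-fold in none. At 1.5-fold, the count among the 10 genes was 2 with Fbxw11c and 2 with Fbxw11d, and that among the 61 wider genes 1 with Fbxw11c and 3 with Fbxw11d. With no filter on dim probes, 2 wider genes passed 2-fold in L1210-Fbxw11c (Fgf21 and Vldlr) and 2 in L1210-Fbxw11d (Fgf21 and Pmaip1), at signals not well above background in the control. Centring on the median moved the median of the 10 genes in L1210-Fbxw11d to 0.24, and that of all genes from 0.04 to 0.26. Of 240 ratios of single genes recomputed, 8 changed sign, for Chac1 and Sesn2 in L1210-Fbxw11c and Asns and Psat1 in L1210-Fbxw11d, all between -0.08 and 0.07. The 240 include both filters on dim probes and flagged spots kept, which changed no ratio of the 10 genes. The mean of probes changed only Psat1 and Phgdh. Median centring raised every ratio in L1210-Fbxw11d, such as Atf3 from -0.43 to -0.21 and Trib3 from -0.55 to -0.325. Phgdh went from 0.30 to 0.52 and Chac1 from 0.32 to 0.54. No paired analysis was possible because each line has 1 array, and no array could be left out for the same reason.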
